A study of Sus scrofa with 20 samples.

Results

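Macrophage and complement C1q transcripts were followed in the adrenal glands of German Landrace pigs, called adult in the labels, 10 with a high-reactive (HR) and 10 with a low-reactive (LR) coping pattern, with 1 Affymetrix Porcine Snowball array per animal. According to the methods, the animals were chosen as extremes of early life coping behavior and by their haplotypes at a coping behavior QTL, so that behavior and haplotype cannot be told apart between the groups. Sex, litter and array batch are not given in the sources used here. The genes were fixed by name and were CD163, CD14, CSF1R, AIF1, TYROBP, FCER1G, CD68, C1QA, C1QB and C1QC. Of these 10 genes, 7 had a SNOWBALL probe set under their symbol in the array's annotation table, with 15 probe sets in all, out of 13588 named genes and 47722 probe sets tested. CD68, a lysosomal glycoprotein, CSF1R, the receptor of the growth factors CSF1 and IL34, and C1QB were not analysed here. A gene with more than 1 probe set is represented by that with the highest mean over the 20 arrays. All values are RMA values on the log2 scale, so that a difference of 1 is a doubling. Levels of different probe sets were set against each other only to choose the probe set of a gene and to mark or leave out dim ones.

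Tissue macrophages engulf dying cells and pathogens and are the main source of C1q, the recognition molecule of the classical complement pathway, in many organs. C1q is assembled from the A, B and C chains and circulates with the proteases C1r and C1s. Macrophages also carry CD163, which takes up complexes of haemoglobin and haptoglobin, and CD14, a co-receptor for bacterial lipopolysaccharide. TYROBP (DAP12) and FCER1G (the Fc receptor gamma chain) are small membrane adaptors that pass signals of many myeloid receptors into the cell through ITAM motifs. AIF1 (IBA1) binds actin and is widely used as a stain for macrophages and microglia. In whole adrenal RNA, fewer macrophages and less RNA per macrophage cannot be told apart.

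The array of animal HR2835 stood apart from the rest, which bears on every result below. Its mean correlation with the other arrays over all probe sets was 0.9377, against 0.9768 to 0.9827 for the other 19 arrays. Among 10176 named genes above the median level, 41.2% had their lowest value in HR2835 and 18.9% their highest. Results are therefore given with and without this animal. The glands carried the defining steroidogenic and chromaffin transcripts, with CYP17A1, an enzyme of steroid synthesis, at 13.54 ± 0.10 in HR and 13.57 ± 0.07 in LR, and CHGA, a protein of chromaffin granules, at 11.23 ± 0.27 in HR and 11.18 ± 0.32 in LR (n = 10 each, SD).

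For none of the 7 transcripts did the difference between HR and LR pass the test. At an adjusted p under 0.05, limma called 0% of the 47722 probe sets, with or without HR2835 (0%). At an unadjusted p under 0.05, 3.65% of the probe sets (1741) were past the threshold with all animals, and 0 of the 7 transcripts were among them. Without HR2835, 3765 probe sets were past it in either direction, and 1 of the 7 transcripts, AIF1, was among them. The estimates of CD163, AIF1 and FCER1G were above 0 and those of CD14, TYROBP, C1QA and C1QC below 0, with a median HR minus LR of -0.03, beside -0.01 over all named genes. Without HR2835, 5 of 7 estimates were above 0, beside 7227 of all 13588 named genes. The median was then 0.08, beside 0.01 over all named genes. All values are shown by animal in the plot of the 7 transcripts.

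**Figure D1:**
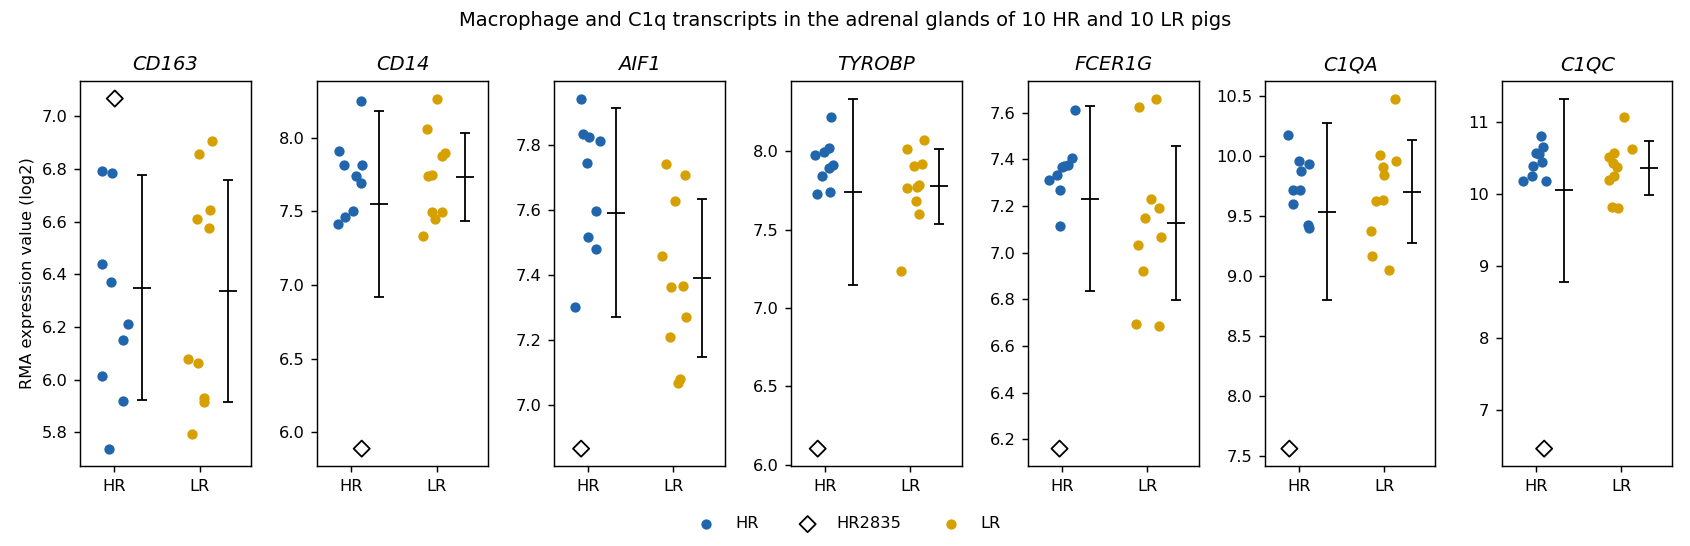
RMA expression values (log2, vertical axis) of the 7 measured transcripts in HR (blue) and LR (yellow) animals, with 1 point per animal and bars for the mean ± SD of all 10 animals of a group. The open diamond is HR2835, which is the lowest animal for 6 transcripts and the highest for CD163, at 7.07.

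The C1q chains are encoded side by side on chromosome 6 in RefSeq on Sscrofa11.1, with C1QA at chr6:80586259-80589213, C1QC at chr6:80592591-80597464 and C1QB at chr6:80601680-80606076. Intervals of 3377 bases between C1QA and C1QC and of 4215 bases between C1QC and C1QB separate them. C1QA, the A chain, ranged from 7.56 to 10.18 around a median of 9.72 in HR and from 9.05 to 10.48 around a median of 9.74 in LR. Apart from HR2835, all HR animals lay within the range of LR. The C1QA means were 9.54 ± 0.74 in HR and 9.70 ± 0.43 in LR (n = 10 each, SD), with an HR minus LR of -0.17 (95% confidence interval -0.68 to 0.35) and an unadjusted p of 0.510 in limma. Without HR2835 this difference was 0.05 (-0.26 to 0.37), so that its sign rested on that animal. C1QC, the C chain, ranged from 6.46 to 10.80 around a median of 10.41 in HR and from 9.79 to 11.07 around a median of 10.40 in LR. The medians of the groups were nearly equal, and the lowest HR value, again from HR2835, differed from the median of the other animals by -3.96. The C1QC means were 10.04 ± 1.28 in HR and 10.36 ± 0.38 in LR (n = 10 each, SD), with an HR minus LR of -0.31 (-1.11 to 0.48, p = 0.419 in limma), against 0.08 (-0.20 to 0.37, p = 0.547) without HR2835.

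The animals kept nearly the same order for both chains. LR2639 was the highest of all animals for C1QA (10.48) and C1QC (11.07), and HR2915 came next with 10.18 and 10.80. LR2793 (9.05 and 9.79) and LR2562 (9.16 and 9.82) were the lowest after HR2835 for both. LR2639 was also the highest animal for FCER1G (7.66), and LR2793 and LR2562 were also the lowest after HR2835 for TYROBP (7.23 and 7.60) and FCER1G (6.70 and 6.69).

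TYROBP and FCER1G, the ITAM adaptors, lie on chromosome 6 (chr6:45309199-45312562) and chromosome 4 (chr4:89242467-89246344). TYROBP ranged from 6.10 to 8.22 around a median of 7.90 in HR and from 7.23 to 8.07 around a median of 7.78 in LR. HR2897 was the highest animal (8.22), and 8 of 10 HR animals lay within the LR range. The TYROBP means were 7.74 ± 0.59 in HR and 7.78 ± 0.24 in LR (n = 10 each, SD), with an HR minus LR of -0.03 (-0.42 to 0.36, p = 0.865 in limma). The estimate without HR2835 was 0.15 (-0.05 to 0.35, p = 0.129). FCER1G ranged from 6.16 to 7.61 around a median of 7.35 in HR and from 6.69 to 7.66 around a median of 7.11 in LR. Apart from HR2835, all HR animals fell within the LR range and close together. The FCER1G means were 7.23 ± 0.40 in HR and 7.13 ± 0.33 in LR (n = 10 each, SD), with an HR minus LR of 0.11 (-0.22 to 0.43, p = 0.504 in limma), against 0.22 (-0.01 to 0.46, p = 0.0638) without HR2835. In the 9 HR animals without HR2835 the SD of FCER1G was 0.13, against 0.33 in the 10 LR animals, and a difference in spread was not tested. Further FCER1G probe sets, SNOWBALL_000841_s_st and SNOWBALL_000843_st, followed the first over the 20 animals (r = 0.927 and 0.859) and gave an HR minus LR of 0.19 and 0.12. Without HR2835 they gave 0.33 (0.04 to 0.63, unadjusted p = 0.0295, adjusted p = 0.623 in limma) and 0.26 (-0.03 to 0.55, unadjusted p = 0.0723).

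AIF1, on chromosome 7 (chr7:23711752-23731191), had the smallest unadjusted p of the 7 transcripts. Its values ranged from 6.87 to 7.94 around a median of 7.67 in HR and from 7.07 to 7.74 around a median of 7.37 in LR. In HR, 5 animals lay above the highest LR animal, 4 lay within the LR range and HR2835 lay below it. The AIF1 means were 7.59 ± 0.32 in HR and 7.39 ± 0.24 in LR (n = 10 each, SD), with an HR minus LR of 0.20 (-0.06 to 0.46, p = 0.119 in limma). Without HR2835 the difference was 0.28 (0.07 to 0.50), with an unadjusted p of 0.0128 and an adjusted p of 0.606 in limma. In that fit 3765 of 47722 probe sets had an unadjusted p under 0.05 in either direction. Those past it with a higher value in HR made up 3.92% of all probe sets. These values are those of SNOWBALL_001228_st. The other AIF1 probe sets followed it less closely over the 20 animals, with r of 0.452 for SNOWBALL_001229_s_st, 0.208 for SNOWBALL_001226_st, 0.179 for SNOWBALL_001225_st and -0.408 for the dim SNOWBALL_001227_st, and without HR2835 these were 0.178, 0.0578, 0.0383 and -0.469 in the same order. HR minus LR was -0.01 for SNOWBALL_001229_s_st, 0.09 for SNOWBALL_001226_st, 0.04 for SNOWBALL_001225_st and -0.24 for SNOWBALL_001227_st, and 0.02 for the mean of all AIF1 probe sets, so that the estimate of AIF1 depends on the probe set. Without HR2835 none of these 4 probe sets had an unadjusted p under 0.05, with 0.10, 0.12, 0.09 and -0.25 in that order.

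CD14 is encoded on chromosome 2 (chr2:142348036-142349686). It ranged from 5.89 to 8.25 around a median of 7.72 in HR and from 7.33 to 8.27 around a median of 7.74 in LR. Only HR2835 lay outside the LR range, with a difference of -1.85 from the median of the other animals. The CD14 means were 7.55 ± 0.63 in HR and 7.73 ± 0.30 in LR (n = 10 each, SD), with an HR minus LR of -0.19 (-0.61 to 0.24, p = 0.373 in limma). Without HR2835 it was -0.002 (-0.26 to 0.26, p = 0.988).

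CD163, on chromosome 5 (chr5:63300200-63334497), ran against the other transcripts in HR2835. It ranged from 5.74 to 7.07 around a median of 6.29 in HR and from 5.79 to 6.91 around a median of 6.33 in LR. In LR, 5 animals lay between 5.79 and 6.08 and 5 between 6.58 and 6.91, while 4 HR animals, with 6.15, 6.21, 6.37 and 6.44, fell into the gap between them. The CD163 means were 6.35 ± 0.43 in HR and 6.34 ± 0.42 in LR (n = 10 each, SD), with an HR minus LR of 0.01 (-0.36 to 0.38, p = 0.951 in limma), against -0.07 (-0.42 to 0.28, p = 0.687) without HR2835. Without that animal CD163 varied more from animal to animal than 91.0% of all named genes, and C1QC more than 78.7%. The second CD163 probe set was dim (mean 1.98) and did not follow the first (r = 0.0480 over the 20 animals).

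**Figure D2:**
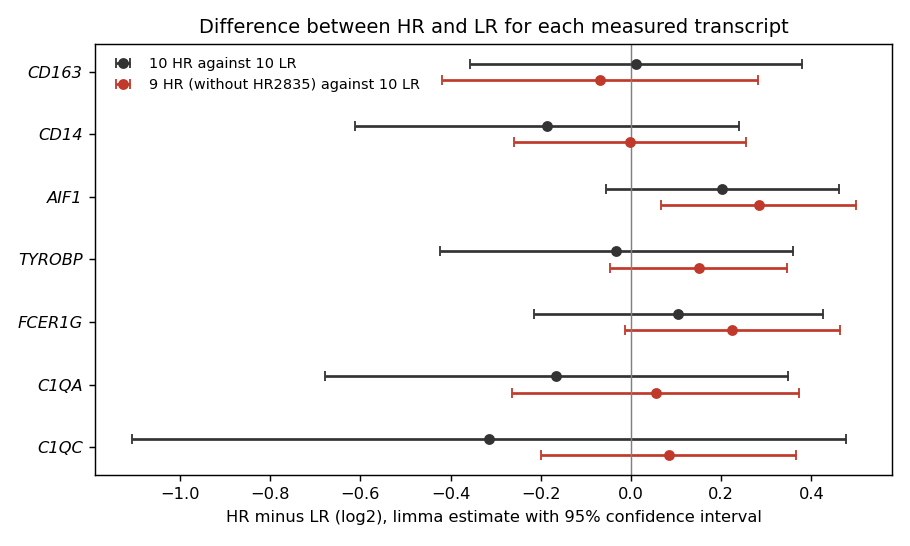
HR minus LR (log2, horizontal axis) of each measured transcript as estimated by limma with its 95% confidence interval, for 10 HR against 10 LR animals (black) and for the 9 HR animals without HR2835 against 10 LR (red). Every black interval crosses 0, and of the red ones only that of AIF1 (0.07 to 0.50) does not.

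Whether the transcripts rose and fell together from animal to animal was asked over the 21 pairs of the 7 transcripts, with two-sided permutation tests of 100000 resamples and Benjamini-Hochberg adjustment over the pairs. With all 20 animals, r had a median of 0.673 and 14 of 21 pairs passed an adjusted p of 0.05. All 6 pairs of CD163 had a negative r (-0.379 to -0.0358), and 0 of them passed. HR2835 was the lowest animal for 6 transcripts and the highest for CD163. Without it, r had a median of 0.474, 20 of 21 pairs were positive and 10 passed.

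With the probe sets that stand for the genes, C1QA and C1QC were the closest pair. When the probe sets of each gene were averaged, their r over 20 animals was 0.82, below that of TYROBP and C1QC (0.94). Over the 20 animals r was 0.948 (permutation p = 1.0e-05, the smallest that the resamples can give, adjusted p = 1.0e-04) and rho was 0.884 (p = 1.0e-05, adjusted p = 2.1e-04). Leaving out the 2 animals farthest from the median of C1QA gave an r of 0.915. Without HR2835 r was 0.939 and rho 0.865 over 19 animals, within the 9 other HR animals r was 0.902 (exact permutation p = 0.00123, adjusted p = 0.0258), and within the 10 LR animals it was 0.951 (permutation p = 1.3e-04, adjusted p = 0.00273). No other of the 21 pairs passed within the 9 HR animals.

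TYROBP and FCER1G formed the next closest pair without HR2835. Over the 20 animals r was 0.870 (permutation p = 1.0e-05, adjusted p = 1.0e-04) and rho was 0.765 (p = 2.0e-04, adjusted p = 0.0021), and leaving out the 2 animals most distant from the TYROBP median gave an r of 0.752. Over 19 animals r was 0.804 (permutation p = 2.0e-05, adjusted p = 2.1e-04) and rho 0.726 (p = 8.0e-04, adjusted p = 0.0084). Within groups r was 0.722 in the 9 other HR animals (exact permutation p = 0.0398, adjusted p = 0.167) and 0.796 in LR (permutation p = 0.00417, adjusted p = 0.0383).

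Without HR2835 the pairs of an adaptor and a C1q chain had a lower r than the pairs above, but this order did not hold over all 20 animals, where TYROBP and C1QC came before TYROBP and FCER1G, or within LR, where FCER1G and C1QA had an r of 0.799. TYROBP and C1QC had an r of 0.940 over 20 animals and of 0.684 over 19 (permutation p = 0.00161, adjusted p = 0.0113), with a rho of 0.641 and 0.581. FCER1G and C1QC had an r of 0.623 over 19 animals (permutation p = 0.0047, adjusted p = 0.0164), while rho was 0.368 (p = 0.121, adjusted p = 0.189). Within LR the FCER1G and C1QC correlation was 0.790 and within the 9 other HR animals it was -0.129 (exact permutation p = 0.765), and a difference between the groups was not tested. CD14 was linked to TYROBP, with an r of 0.903 over 20 animals and of 0.630 over 19 (permutation p = 0.00307, adjusted p = 0.0129), and a rho of 0.720 and 0.674. CD14 and AIF1 had an r of 0.421 over 20 animals (permutation p = 0.059, adjusted p = 0.0827) and of 0.00941 over 19 (permutation p = 0.969). Over 20 animals this pair passed by r with values centred on the group means (r = 0.533, adjusted permutation p = 0.031). The rho of the centred values was 0.254 (adjusted permutation p = 0.347). Leaving out the 2 animals farthest from the CD14 median gave them an r of -0.0421. The pair also passed when the probe sets of each gene were averaged (r = 0.820, adjusted permutation p = 1.5e-04). There rho was 0.716, and r without the 2 farthest animals was 0.709.

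The pairs of CD163 with the C1q chains passed in 19 animals and not in 20. Over 20 animals the r of CD163 and C1QC was -0.206 (permutation p = 0.468) with a rho of 0.402 (p = 0.0811). Leaving out the 2 animals farthest from the median of CD163 gave an r of 0.676. Without HR2835 r was 0.633 (permutation p = 0.003, adjusted p = 0.0129) and rho 0.635 (p = 0.00435, adjusted p = 0.0228). Within groups it was 0.613 in the 9 other HR animals (exact permutation p = 0.0822) and 0.691 in LR (permutation p = 0.024), and neither passed after adjustment (0.247 and 0.0721). CD163 and C1QA had an r of 0.578 over 19 animals (permutation p = 0.00905, adjusted p = 0.0222), with a rho of 0.514 (p = 0.026, adjusted p = 0.083). The remaining 4 pairs of CD163 had an r of -0.0634 to 0.214 over 19 animals, and none of these pairs, with TYROBP, FCER1G, CD14 and AIF1, passed.

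**Figure D3:**
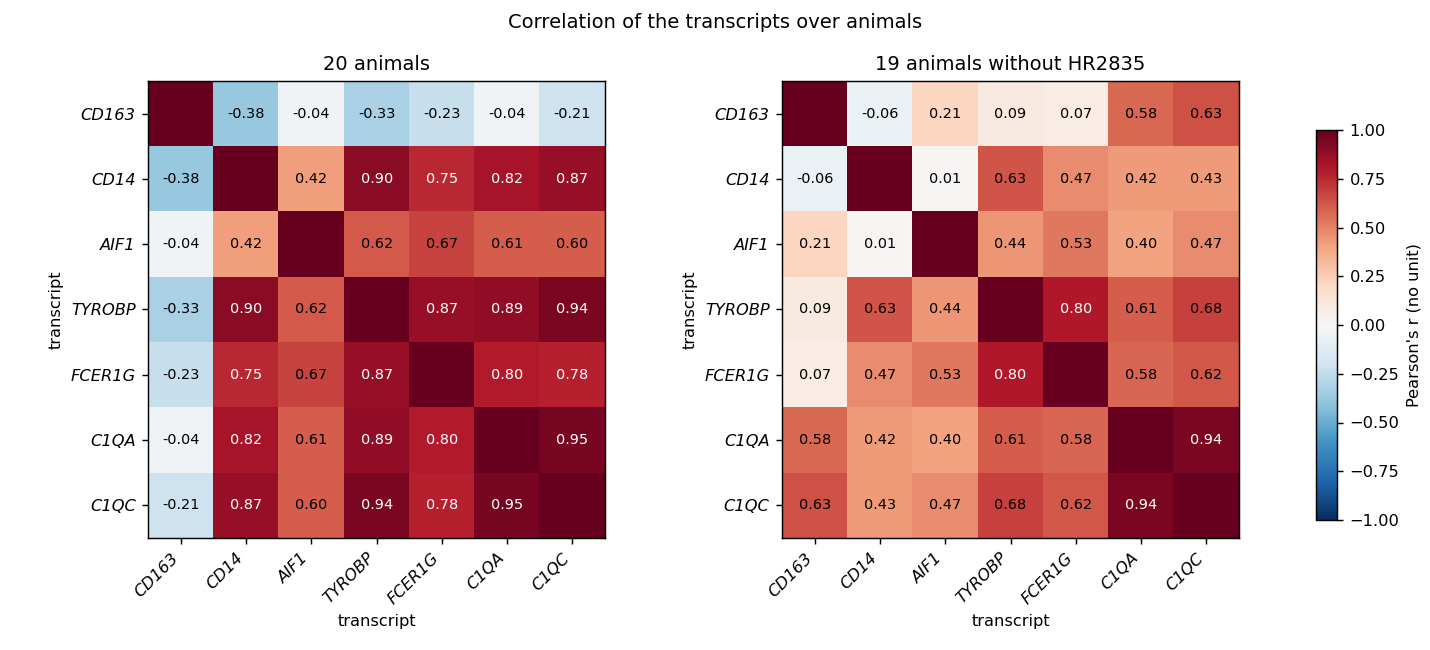
Pearson's r (colour scale from -1 to 1, value in each cell) of each pair of the 7 measured transcripts over all 20 animals (left) and over the 19 animals without HR2835 (right). The row of CD163 is negative on the left and reaches 0.63 with C1QC on the right, while C1QA and C1QC stay above 0.93 in both.

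**Figure D4:**
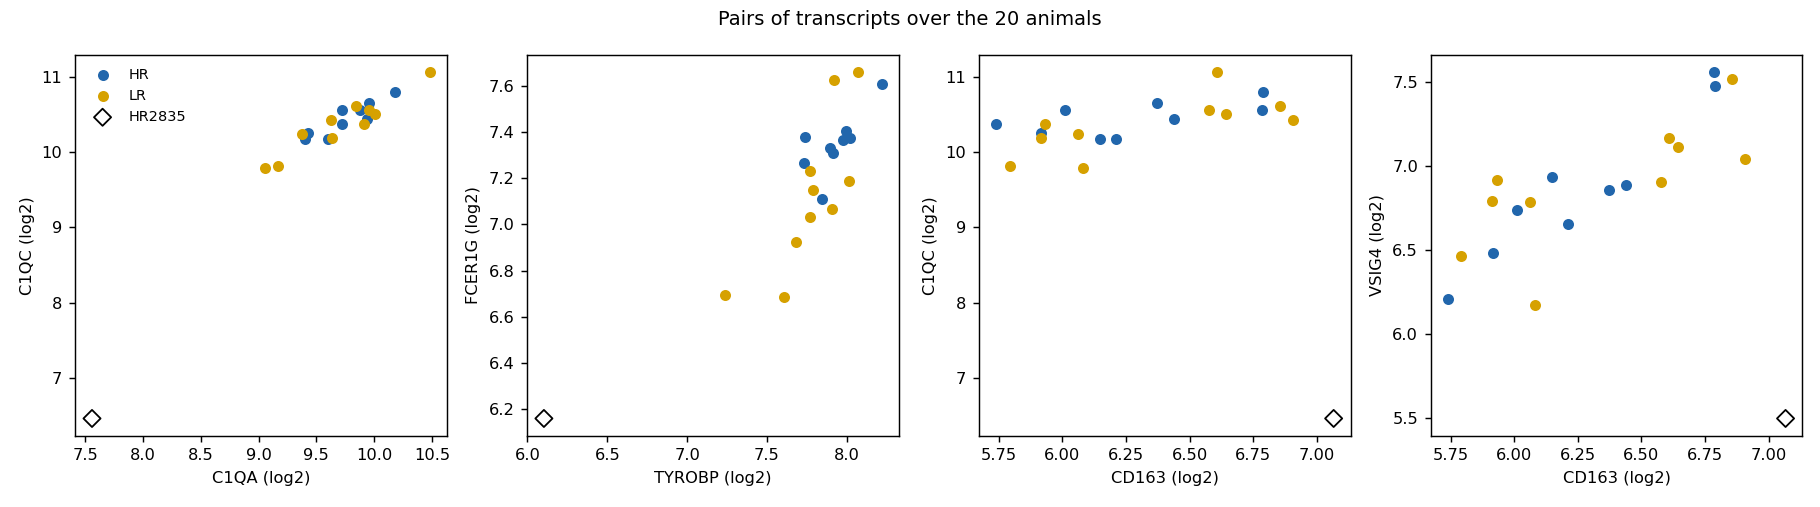
Values (log2, both axes) of C1QA and C1QC, of TYROBP and FCER1G, of CD163 and C1QC and of CD163 and VSIG4 in HR (blue) and LR (yellow) animals, with 1 point per animal. HR2835 (open diamond) lies at the low end of both axes for C1QA and C1QC and at the lower right for the CD163 pairs, at 7.07 for CD163 and 5.50 for VSIG4.

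Beyond the pairs, each transcript was set against 10175 other named genes above the median level, as a description over 19 animals without HR2835 that share their arrays and normalization. CD163 was most like HAVCR2 (TIM-3, r = 0.827), VSIG4 (CRIg, a macrophage receptor of complement C3 fragments, r = 0.823) and TIMD4 (TIM-4, a receptor for phosphatidylserine on dying cells, r = 0.813). Split by group, the r of CD163 and VSIG4 was 0.949 in the 9 HR animals and 0.729 in LR, that of CD163 and HAVCR2 was 0.965 in these HR animals and 0.741 in LR, and that of CD163 and TIMD4 was 0.780 in these HR animals and 0.832 in LR. The groups hold the same animals that chose the genes, so that this is no separate support, and in LR alone the genes most like CD163 were THOC2 (r = 0.917), MIER3 (r = 0.909) and ID4 (r = 0.883). Among macrophage markers chosen after their values were seen, MSR1, a scavenger receptor, had an r with CD163 of 0.746 and CTSS, a lysosomal protease, of 0.718. The median r with CD163 over all 29 other macrophage markers measured was 0.25. MSR1, with a mean of 4.68, lay below the median level of 4.78 and so was not among the 10175 genes. In HR2835 CD163 was the highest of all animals while VSIG4 (5.50) and TIMD4 (3.76) were the lowest, and over 20 animals the r of CD163 with VSIG4 was 0.322 and with TIMD4 0.409. With all animals the 3 genes most like CD163 were UACA (r = 0.817), SCLT1 (r = 0.806) and ID4 (r = 0.770), of which UACA (7.58) and SCLT1 (6.29) were likewise highest in HR2835. Their r with CD163 was similar without that animal, at 0.776 for UACA, 0.775 for SCLT1 and 0.783 for ID4, and in LR it was 0.869 for UACA and 0.876 for SCLT1.

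Genes of antigen presentation were among those most like TYROBP and FCER1G. TYROBP was most like ITGB2, the beta chain of leukocyte integrins (r = 0.852), CERCAM (r = 0.839) and SLA-DMB, which helps to load MHC class II molecules (r = 0.822). FCER1G was most like CPPED1 (r = 0.865), SLA-DRB1, an MHC class II beta chain (r = 0.850), and TYROBP itself. Over the 10 measured genes of MHC class II and its loading, the median r over 19 animals was 0.65 with TYROBP, 0.69 with FCER1G and 0.54 with C1QC, and 0.05 with CD163. Over all named genes the medians were 0.05, 0.07, 0.01 and -0.02 for TYROBP, FCER1G, C1QC and CD163. SLA-DOB was an exception, with an r with TYROBP of -0.32.

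C1QA and C1QC each had the other as the most like of all these genes. FOLR1, a folate receptor, came next for both (r = 0.819 with C1QA and 0.805 with C1QC), followed by C2, the complement protease that acts after C1 (r = 0.809 with C1QA), and by EVI2B (r = 0.789 with C1QC). With all 20 animals C1QC was most like PLAC9 (r = 0.961), SNX17 (r = 0.953) and SCPEP1 (r = 0.952), each lowest in HR2835. CD14 was most like ZFP36, which promotes the decay of inflammatory mRNAs (r = 0.847), and NINJ1, which ruptures the plasma membrane of dying cells (r = 0.841). AIF1 was most like XPNPEP2 (r = 0.750) and ARHGAP30 (r = 0.738), with lower values than the other transcripts reached with their nearest genes.

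Genes that work with these transcripts were counted from lists, and limma called 0 genes of any list with or without HR2835. Over all 13588 named genes, 6288 had an estimate above 0 with all animals and 7227 without HR2835. The counts of the lists below are to be read beside these. Among 24 measured genes of the classical complement pathway and its regulators, 7 had an estimate above 0 and the median HR minus LR was -0.05, or 0.01 with 14 above 0 without HR2835. C1R, a protease of the C1 complex, averaged 9.47 in HR and 9.49 in LR, C4A 10.61 in HR and 10.73 in LR, and C3 8.90 in HR and 9.22 in LR (HR minus LR of -0.32, p = 0.198 in limma). In the lectin pathway, where 11 genes were measured, MASP1, a protease that activates its partner MASP2, averaged 4.81 ± 0.24 in HR and 5.15 ± 0.31 in LR (n = 10 each, SD), with the smallest unadjusted p of that list (0.0109).

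Of 19 measured Fc receptors and ITAM signalling genes, 14 had an estimate above 0, with a median of 0.05, or 15 with a median of 0.12 without HR2835. PTPN6 (SHP-1), a phosphatase that dampens ITAM signals, had the smallest p, with 4.02 ± 0.14 in HR and 3.78 ± 0.22 in LR (HR minus LR of 0.24, unadjusted p = 0.0122 in limma). Both means lay below the median level of 4.78 over the probe sets tested. In the list of the CSF1 axis and myeloid transcription factors, with 15 genes measured, 6 estimates were above 0, with a median of -0.03, or 7 with a median of -0.01 without HR2835. CSF1, the growth factor of macrophages, averaged 8.23 in HR and 8.30 in LR, and MAF, a transcription factor of tissue macrophages and other cells, 9.34 ± 0.46 in HR and 9.67 ± 0.16 in LR (HR minus LR of -0.33, unadjusted p = 0.0344). Among 12 genes of haemoglobin uptake and haem breakdown, 4 estimates were above 0 with a median of -0.05, and 10 with a median of 0.07 without HR2835. In the LPS receptor complex, with 9 genes measured, 4 estimates were above 0 and the median was -0.06, or 5 with a median of 0.01 without HR2835.

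The 29 other macrophage markers measured were split, with 14 estimates above 0 and 15 below and a median of -0.008, or 16 above 0 with a median of 0.05 without HR2835. VSIG4 averaged 6.73 ± 0.59 in HR and 6.89 ± 0.37 in LR, TIMD4 5.44 ± 0.84 in HR and 5.78 ± 0.81 in LR, and CYBA, a subunit of the phagocyte oxidase, 8.13 ± 0.46 in HR and 8.02 ± 0.17 in LR (n = 10 each, SD). VSIG4 and TIMD4 were lowest in HR2835. Without it, HR minus LR went from -0.16 to -0.02 for VSIG4 and from -0.33 to -0.15 for TIMD4. Of 10 genes of MHC class II, 7 estimates were above 0, with a median of 0.005, and 9 with a median of 0.15 without HR2835.

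Lists of other cells had medians on either side of that of the macrophage markers. Of 12 pan-leukocyte genes, 11 had an estimate above 0, with a median of 0.14, and 12 with a median of 0.20 without HR2835. CD52 was the one with the smallest p, at 7.48 ± 0.26 in HR and 7.13 ± 0.32 in LR (HR minus LR of 0.35, unadjusted p = 0.00984). The mean level of the pan-leukocyte genes in an animal was 6.20 to 7.02 in HR and 6.20 to 6.76 in LR. In HR the 6.20 was that of HR2835, and the lowest of the other HR animals was 6.62. For T and NK cells, 10 of 14 estimates were above 0 (median 0.15), for B and plasma cells 5 of 6 (0.08) and for red blood cells 5 of 6 (0.20). In contrast, all 8 capsule and fibroblast genes had an estimate below 0, with a median of -0.34, or -0.23 without HR2835. Their mean level was 8.30 to 9.69 in HR and 9.22 to 10.17 in LR. Here too the 8.30 was that of HR2835, and the lowest of the other HR animals was 9.21. All 7 adrenal cortex genes measured also had an estimate below 0 (median -0.04), and without HR2835 4 were above 0 (median 0.001). Of the 7 adrenal medulla genes, 6 had an estimate above 0 (median 0.05). The part of these cells in the estimates of the macrophage and C1q transcripts was not tested.

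**Figure D5:**
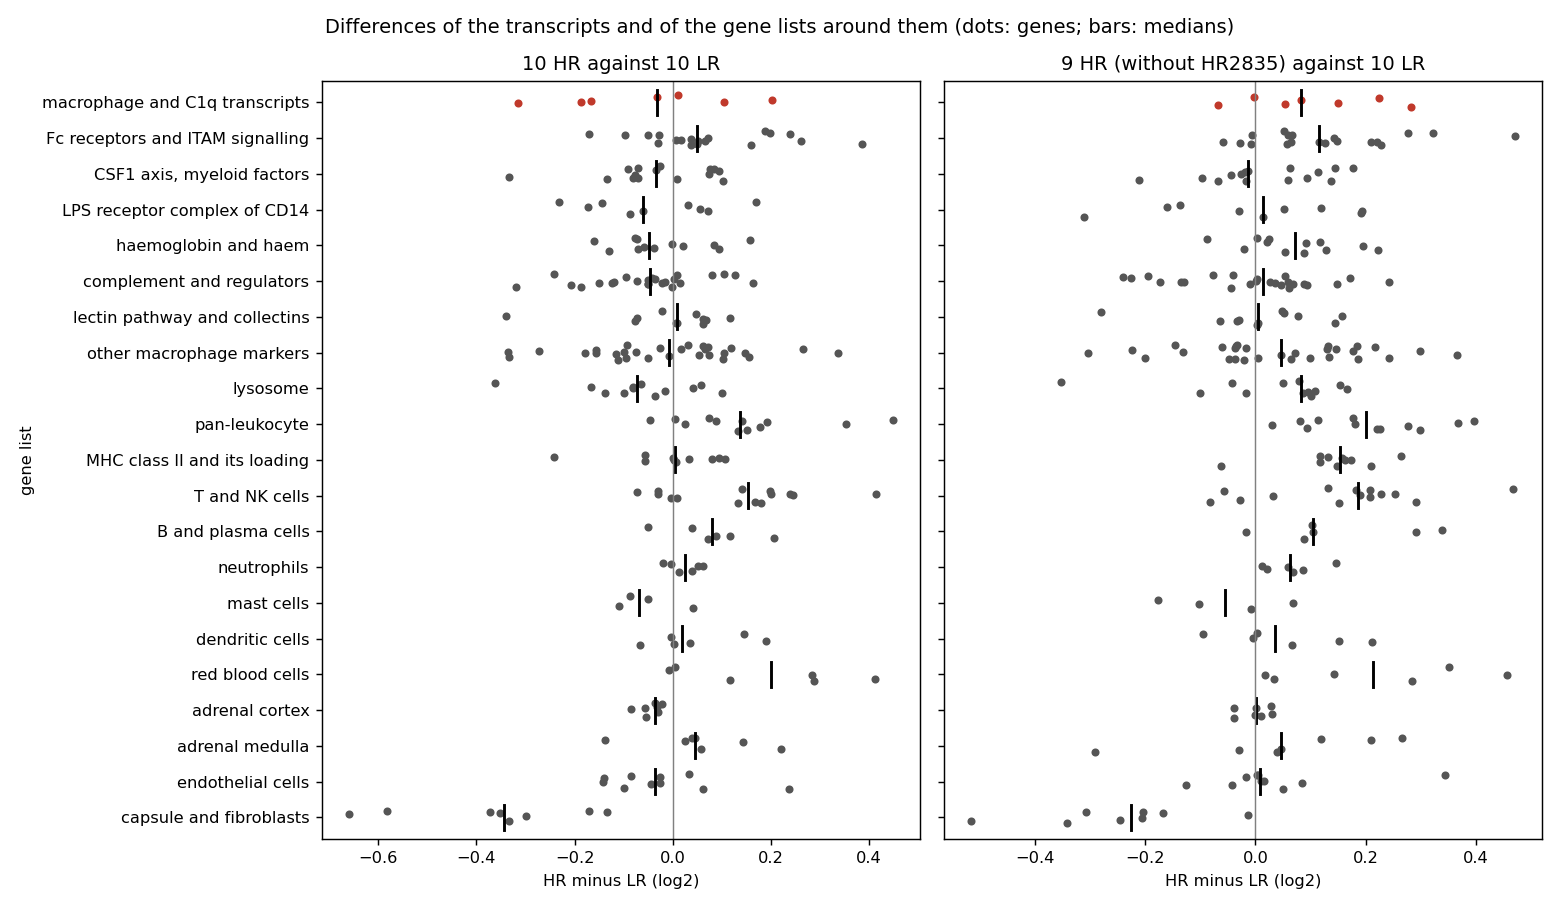
HR minus LR (log2, horizontal axis) of the 7 macrophage and C1q transcripts (red) and of the measured genes of each list (grey), with 1 dot per gene and a bar for the median of each list, for 10 HR against 10 LR animals (left) and without HR2835 (right). The medians lie between -0.34 (capsule and fibroblasts) and 0.20 (red blood cells) on the left.

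HR2835 was also set against the median of the other animals, as a description with no test. The 7 transcripts had a median difference of -1.79. The genes of MHC class II followed with -1.67 and those of the capsule and fibroblasts with -1.48, while the other macrophage markers had -0.56, the adrenal cortex genes -0.52 and all named genes -0.20. The adrenal medulla genes were not lower, with a median difference of 0.06. Single transcripts differed by -3.96 for C1QC, -2.16 for C1QA, -1.85 for CD14, -1.79 for TYROBP, -1.11 for FCER1G and -0.65 for AIF1, and by 0.86 for CD163. The part of the array's quality in these values was not tested.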

How the data were processed

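RNA from 20 adrenal glands was measured, 10 HR and 10 LR. Per the labels and the methods, the authors scanned and read out the arrays with GCOS 1.1.1, followed by RMA. The deposited log2 values, which span 0.37 to 14.34, entered all steps as they are. Groups follow the animal names in the labels, and the number of arrays limits the precision. Nothing says that animals were pooled.

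Probe sets were named through the array's annotation table, which can hold old symbols, and positions come from RefSeq on Sscrofa11.1 by symbol. Of 47845 probe sets, 123 controls were left out. The comparison of HR with LR used limma 3.58.1 under R 4.3.3 (a two-sided moderated test from lmFit and eBayes without covariates), with Benjamini-Hochberg adjustment over 47722 probe sets and a threshold of 0.05. Correlations over animals were tested in Python 3.11.15 with scipy 1.17.1 by permutation, exactly with 9 animals. A test of all pairs of 10 genes was planned, and 21 pairs were possible with 7 genes measured. The genes named are the 7 transcripts, the 3 genes most like each of them and, from each list, the genes with the smallest p or the highest mean, of which a part is printed. C1R, C3, CSF1, MSR1 and CTSS fall outside this rule and were named after their values were seen. The genes and the lists were chosen with earlier results of these data known. Alternatives were a filter on dim probe sets, array quality weights, median centring, quantile normalization, a variance model with trend and robust fit, other probe sets of a gene, medians, group-centred values, Spearman's rho, single groups and the omission of each animal in turn. Both test procedures were tested on simulated data. These held no array that stands apart, so they do not show how the tests behave with HR2835.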

Additional observations from a re-analysis of the deposited data

Results flagged for a closer look

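In 5 of the 14 combinations of transcript and group tested with Dixon's ratio, which divides the gap of the extreme animal by the range of its group, HR2835 was too far below the other HR animals (critical value 0.466 for 10 animals). The ratios were 0.647 for CD14, 0.769 for TYROBP, 0.657 for FCER1G, 0.704 for C1QA and 0.856 for C1QC. Chance flags about 1 in 20 groups, and since the values come from 1 array these are not independent. Its array quality weight in limma was 0.143, against 0.829 to 1.48 for the other animals, and 34.2% of all 13588 named genes were lowest in it. No transcript had such an animal in LR.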

How the results depend on the processing

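No transcript passed an adjusted p of 0.05 in limma under any alternative, the left-out animals included. HR minus LR turned its sign with array quality weights for CD163 (-0.0476), TYROBP (0.0916) and C1QC (0.00668), with the difference of medians for CD163 (-0.0377), TYROBP (0.123) and C1QC (0.00839), and with the second probe set for C1QA (0.122). Leaving out 1 animal at a time gave -0.0688 to 0.0789 for CD163, -0.0927 to 0.15 for TYROBP, -0.238 to 0.0542 for C1QA and -0.399 to 0.0832 for C1QC, and for C1QA and C1QC the sign turned without HR2835 alone. The median correlation of a probe set with the one that stood for its gene was 0.194, or 0.118 without HR2835. Of the 21 pairs, 14 passed, against 7 by Spearman's rho, 10 without HR2835, 8 in the 10 HR animals, 6 in LR and 1 in the 9 HR animals without HR2835, a subset chosen after seeing the data. CD163 turned its sign with C1QA by Spearman's rho (0.298), without HR2835 (0.578), in LR (0.547) and in the 9 HR animals (0.710), with C1QC likewise (0.402, 0.633, 0.691 and 0.613), with TYROBP without HR2835 (0.0906) and in LR (0.293), and with CD14 in the 9 HR animals (0.227). CD14 and AIF1 turned in LR (-0.165), and passed with group-centred values (0.533) and with the mean of all probe sets (0.820). These sign changes were listed for a part of the 21 pairs only. Other pairs turned too, for example CD163 and AIF1 without HR2835 (0.214) and FCER1G and C1QA in the 9 HR animals (-0.278). Fewer animals enter the single groups, and the cause of the other changes was not tested. No paired analysis was possible because no 2 animals share a number.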
